A study of Arabidopsis thaliana with 6 samples.

Results

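IVD, MCCA and MCCB encode enzymes of leucine breakdown, and each was measured by 1 probe set that the array annotation assigns to that gene alone. These 3 probe sets were chosen by gene name out of 22746 gene probe sets on the array, and all 3 passed the filter on low signal that left 13983 probe sets for testing. RNA came from rosette leaves of 2 lines of Arabidopsis thaliana. The pho3 group held 3 arrays of a Feldmann T-DNA insert line in the ws-2 background, and the wild-type group held 3 arrays of the accession ws-2 without the insert. All plants grew under a cycle of 16 h light and 8 h dark at 23 °C, spent 10 days on medium with 1% sucrose before compost, and were sampled at growth stage 6.0. The labels name neither the gene that carries the insert nor whether plants were pooled. From background knowledge, pho3 has a defect in SUC2, the transporter that loads sucrose into the phloem. No probe set carries the name SUC2 in the annotation used here, and the insertion was not checked on these arrays.

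Plants degrade leucine in mitochondria when carbohydrate runs short, and the electrons and acetyl units released feed respiration. Branched-chain aminotransferase and branched-chain ketoacid dehydrogenase turn leucine into isovaleryl-CoA. Isovaleryl-CoA dehydrogenase, the product of IVD, oxidises it and passes electrons through the electron transfer flavoprotein to the respiratory chain. Methylcrotonoyl-CoA carboxylase then adds a carboxyl group. MCCA is its biotin-bearing subunit and MCCB its carboxyltransferase subunit. Genes of this route are known in Arabidopsis for rising in darkness and sugar starvation and falling when sugar is supplied. The comparison addressed here is whether their transcript levels differed between pho3 and wild-type leaves.

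None of the 3 genes passed the test between the lines, and the groups overlapped for each. The mean signal was higher in pho3 by 1.18-fold for IVD, 1.12-fold for MCCA and 1.02-fold for MCCB. The test was limma on log2 signals of all 6 arrays, two-sided, adjusted over all tested probe sets by the Benjamini-Hochberg method, with a threshold of 0.05. At that threshold 0% of tested probe sets were called in either direction, with a lowest adjusted p of 0.375 in limma. At an unadjusted p under 0.05 limma called 5.77% as higher and 4.85% as lower, and none of the 3 genes was among them. Nothing in the labels says that replicates were separate plants, so each p-value reflects only the spread among these arrays, which may be technical.

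Directions follow the labels, although 2 arrays did not sit with their groups. Over the tested probe sets, the spread of log2 differences (scaled median absolute deviation) between the array labelled wild-type replicate 1 and the pho3 arrays was 0.27 to 0.31, against 0.47 to 0.48 between it and wild-type replicates 2 and 3. In the same measure pho3 replicate 3 lay 0.35 to 0.37 from wild-type replicates 2 and 3 and 0.43 to 0.44 from pho3 replicates 1 and 2. APL3, a sugar-induced subunit of the starch enzyme ADP-glucose pyrophosphorylase, read 541, 549 and 256 in pho3, against 397, 99.3 and 56.3 in wild type. Its log2 difference was 1.70 (limma adjusted p = 0.375). The difference was 2.50 without wild-type replicate 1 and 2.87 without both arrays (limma adjusted p = 0.0253 and 0.00164). It was 1.09 without wild-type replicate 3 (limma adjusted p = 0.696). DFR, also sugar-induced, read 736, 1155 and 586 in pho3, against 799, 34.2 and 27.6 in wild type. APL4, sugar-induced as well, read 458, 488 and 216 in pho3, against 372, 16.3 and 16.1 in wild type. For both, pho3 replicate 3 read above wild-type replicates 2 and 3 and below wild-type replicate 1. Values without the 2 doubtful arrays are also given below for genes whose call depends on them. Without both arrays 34.7% of tested probe sets passed, 2547 of them as higher and 2305 as lower, so such a call is common. Of 7 leaf markers listed, 5 had a named probe set, and all 5 read at or above the 98.8th percentile of each array. Each of the 5 had a lower mean in pho3 (median of the log2 differences -0.33), 0 of them passed limma's adjusted test and 1 had an unadjusted p under 0.05, and their part in the results below was not tested. Of 3 guard cell markers listed, 1 had a named probe set. This was FMA, which read 40.9 to 50.2 in pho3 and 48.6 to 63.7 in wild type. Its groups overlapped, with a log2 difference of -0.27 (limma adjusted p = 0.4). The listed markers of phloem, flower, seed and root have no value here. In whole leaves, fewer cells of a type and less RNA per cell cannot be told apart.

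IVD, the dehydrogenase, read 103, 104 and 73.6 on pho3 replicates 1, 2 and 3. It read 86.6, 77.5 and 71.3 on wild-type replicates 1, 2 and 3. Replicates 1 and 2 of pho3 were the highest of the 6 arrays, while pho3 replicate 3 read below wild-type replicates 1 and 2. The means were 93.7 ± 17.4 in pho3 leaves and 78.5 ± 7.7 in wild-type leaves (SD, n = 3 each). This was a log2 difference of 0.24 with SE 0.18 (limma adjusted p = 0.46), with a 95% interval of the fold from 0.88 to 1.59. On each array IVD lay between percentiles 63.5 and 71.1 of all gene probe sets, so its signal was not among the dim ones where MAS5 has its largest relative error.

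The order of the arrays for IVD was close to that of the sugar-induced starch gene APL3. For both, pho3 replicates 2 and 1 and then wild-type replicate 1 were highest and wild-type replicate 3 lowest. PRK, a Calvin cycle enzyme, ran the other way, with 1394, 1478 and 2483 in pho3, against 1966, 2726 and 2886 in wild type. Like IVD, a measure of RNA quality from the first actin control was highest on pho3 replicates 2 and 1 and then wild-type replicate 1. The first actin control, as the signal of its 3-prime over its 5-prime part, gave 4.75, 5.24 and 3.46 in pho3, against 4.23, 2.18 and 2.26 in wild type, and its part in the IVD values was not tested. The second actin control gave 1.84, 2.11 and 1.79 in pho3, against 1.84, 1.95 and 1.83 in wild type. Between the lines the first actin ratio differed by 0.68 on the log2 scale and the second by 0.03 (two-sided exact permutation p = 0.2 and 0.9). The same ratio for GAPDH differed by 0.05 and -0.02, and for ubiquitin by -0.01 and -0.06 (two-sided exact permutation p = 0.6, 0.8, 0.8 and 0.5).

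**Figure D1:**
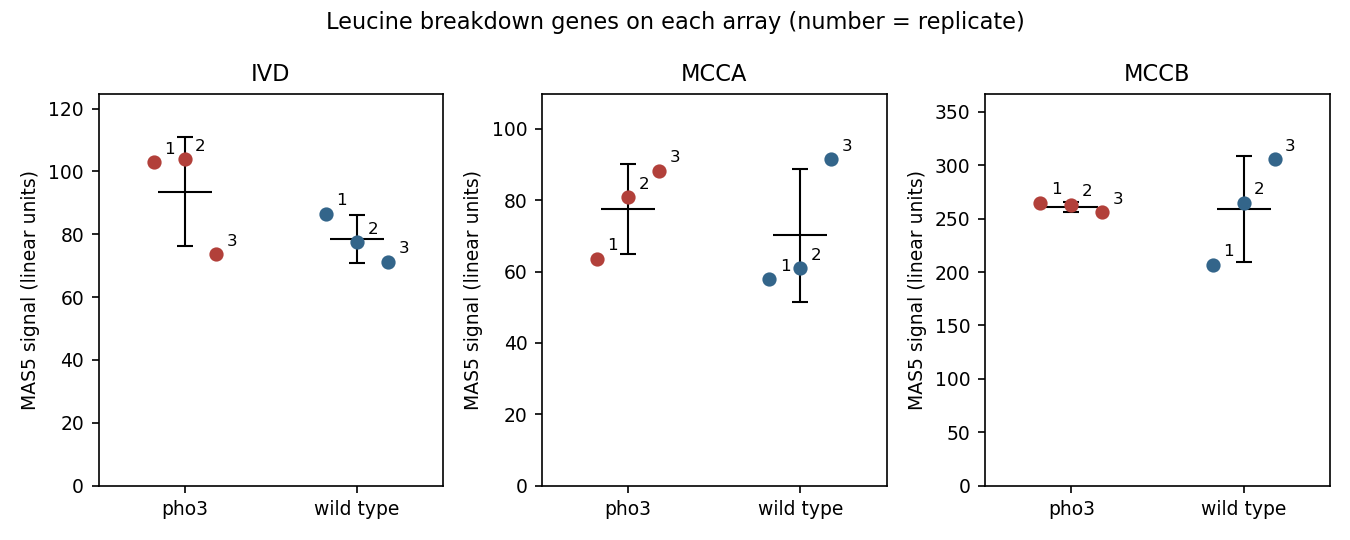
MAS5 signal (linear units, from 0) of IVD, MCCA and MCCB on each array, with pho3 in red and wild type in blue, points numbered by replicate, and bars giving the mean and SD of 3 arrays. The groups overlap in all 3 panels, and the 3 pho3 points of MCCB lie close together at 256 to 265 against 207 to 306 in wild type.

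MCCA, the biotin-bearing subunit, read 63.6, 80.9 and 88.3 on pho3 replicates 1, 2 and 3. It read 57.8, 61 and 91.6 on wild-type replicates 1, 2 and 3. The highest and the lowest arrays were both wild type, so the pho3 values lay wholly within the wild-type range. The means were 77.6 ± 12.6 in pho3 leaves and 70.1 ± 18.7 in wild-type leaves (SD, n = 3 each). This was a log2 difference of 0.16 with SE 0.22 (limma adjusted p = 0.675), with a 95% interval of the fold from 0.776 to 1.62. MCCA lay between percentiles 56.7 and 69.4 of each array.

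MCCB, the carboxyltransferase subunit, read 265, 263 and 256 on pho3 replicates 1, 2 and 3. It read 207, 265 and 306 on wild-type replicates 1, 2 and 3. Here too the pho3 values lay within the wild-type range, and they differed little among themselves, with a coefficient of variation of 1.75% in pho3 and 19.3% in wild type. The means were 262 ± 4.59 in pho3 leaves and 259 ± 50.1 in wild-type leaves (SD, n = 3 each). This was a log2 difference of 0.03 with SE 0.18 (limma adjusted p = 0.928), and the 95% interval of the fold ran from 0.763 to 1.37. MCCB lay between percentiles 85.1 and 90.4 of each array.

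Among all tested probe sets these differences were of ordinary size. The absolute log2 difference of IVD exceeded that of 48.1% of tested probe sets, that of MCCA 34.4% and that of MCCB 6.72%. The median absolute log2 difference over all tested probe sets was 0.254. A mean log2 difference above 0, shown by all 3 genes, was found for 49.8% of tested probe sets.

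**Figure D2:**
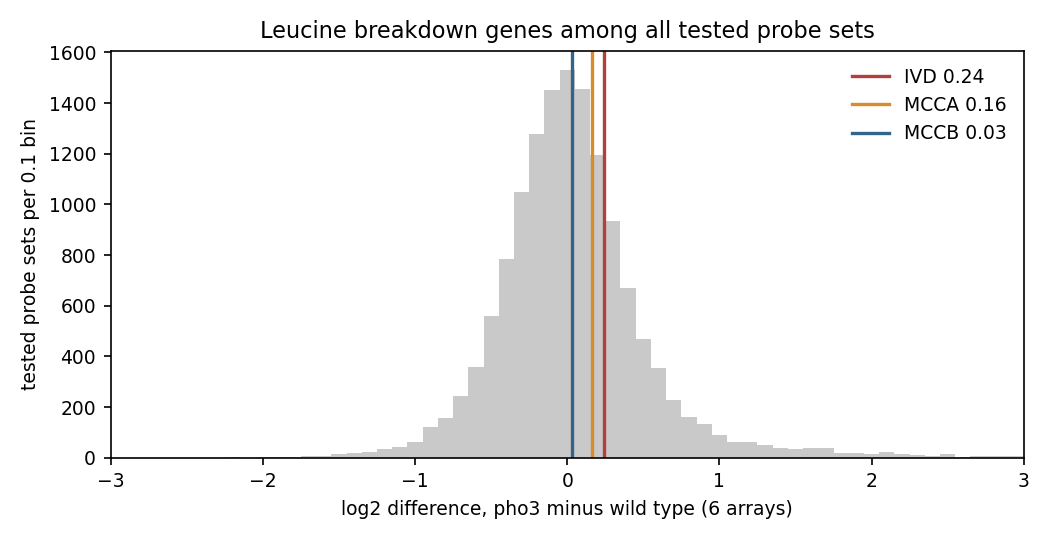
Number of tested probe sets (vertical axis, per bin of 0.1) by log2 difference, pho3 minus wild type over 6 arrays, with vertical lines at IVD, MCCA and MCCB. In bins wholly outside the plotted range lie 50 probe sets, and the bins at its edges are cut. The lines stand at 0.24, 0.16 and 0.03, in the central part of the distribution.

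The enzyme needs both carboxylase subunits, so the ratio of their signals was followed within arrays. The log2 ratio of MCCA to MCCB was -1.77 ± 0.27 in pho3 leaves and -1.90 ± 0.20 in wild-type leaves (SD, n = 3 each). It differed by 0.13 (two-sided exact permutation p = 0.5). The ratio of IVD to MCCB differed by 0.21 and that of IVD to MCCA by 0.08 on the log2 scale (two-sided exact permutation p = 0.7 for each). After adjustment over these 3 ratios each exact permutation p was 0.7, and 3 against 3 arrays allow no p below 0.1. The level of a ratio between probe sets carries their different binding and was not read.

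The array labelled wild-type replicate 1 was the lowest for both subunits, at -0.33 for MCCA and -0.32 for MCCB on the log2 scale relative to the mean of the 6 arrays. Wild-type replicate 3 was the highest for both, at 0.33 and 0.24. Among the pho3 arrays MCCA ran from -0.19 to 0.28, while MCCB ran from -0.01 to 0.03. IVD was at 0.03 on wild-type replicate 1 and at -0.25 on wild-type replicate 3, so IVD did not share the low and high wild-type arrays of the carboxylase subunits.

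The values of the 3 genes shifted when the doubtful arrays were left out. Without wild-type replicate 1, the log2 difference was 0.32 for IVD, 0.04 for MCCA and -0.12 for MCCB (limma adjusted p = 0.312, 0.919 and 0.599), where 5.44% of tested probe sets passed. Without wild-type replicate 3, the log2 difference was 0.17 for IVD, 0.37 for MCCA and 0.16 for MCCB (limma adjusted p = 0.755, 0.696 and 0.742). With pho3 replicate 3 and wild-type replicate 1 both left out, IVD rose in pho3 by 1.4-fold (0.48 on the log2 scale with SE 0.14, limma adjusted p = 0.046). In that fit 34.7% of all tested probe sets passed, and 18.2% of all tested passed as higher, so a call there is common. All 5 leaf markers fell in that fit, with a median of -0.53 on the log2 scale. All 5 passed limma's adjusted test as lower, where 2305 of the 13983 tested probe sets did. The part of these markers in the IVD call was not tested. MCCA then differed by -0.06 and MCCB by -0.11 (limma adjusted p = 0.868 and 0.566). This fit keeps only the 4 arrays farthest apart by line, and the choice of arrays was made with results of these data known. On those 4 arrays the IVD to MCCB ratio differed by 0.59 and the MCCA to MCCB ratio by 0.05 on the log2 scale, and whether IVD differs from the carboxylase genes in its change was not tested there.

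The list of leucine breakdown steps adds 3 tested genes to IVD, MCCA and MCCB. Of 14 genes listed, 6 had a named probe set, IVD, MCCA and MCCB among them, and all 6 were tested. Of these, 4 were higher and 2 lower on average in pho3, 0 passed limma's adjusted test and 0 had an unadjusted p under 0.05. Their median log2 difference was 0.10, against 0.00 over all tested probe sets. Without wild-type replicate 1 it was -0.04, and without pho3 replicate 3 as well it was -0.08, with 1 of the 6, IVD, called where 34.7% of all tested probe sets were. Of the 3 added genes, AT5G09300 had a higher mean in pho3, and AT4G16800 and AT2G26800 had lower means. The reference table names the other measured loci of the list by locus alone.

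AT4G16800 read 28.3, 34.9 and 39 in pho3, against 42.9, 38.4 and 53.6 in wild type. AT2G26800 read 146, 179 and 230 in pho3, against 200, 260 and 184 in wild type. The groups of both loci overlapped, with log2 differences of -0.40 and -0.23 (limma adjusted p = 0.375 and 0.561). AT5G09300, named here although it fell outside the rule for named genes, differed by 0.25 (limma adjusted p = 0.694) and by -0.10 without wild-type replicate 2. It read 15.1 on wild-type replicate 2 and 23.6 to 35 on the pho3 arrays. AT5G09300 lay between percentiles 26.4 and 46.6 of each array, so its signal was dim and MAS5 error may weigh on it. A further probe set for a listed gene of the route is shared with another gene in the annotation and was not analysed here.

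**Figure D3:**
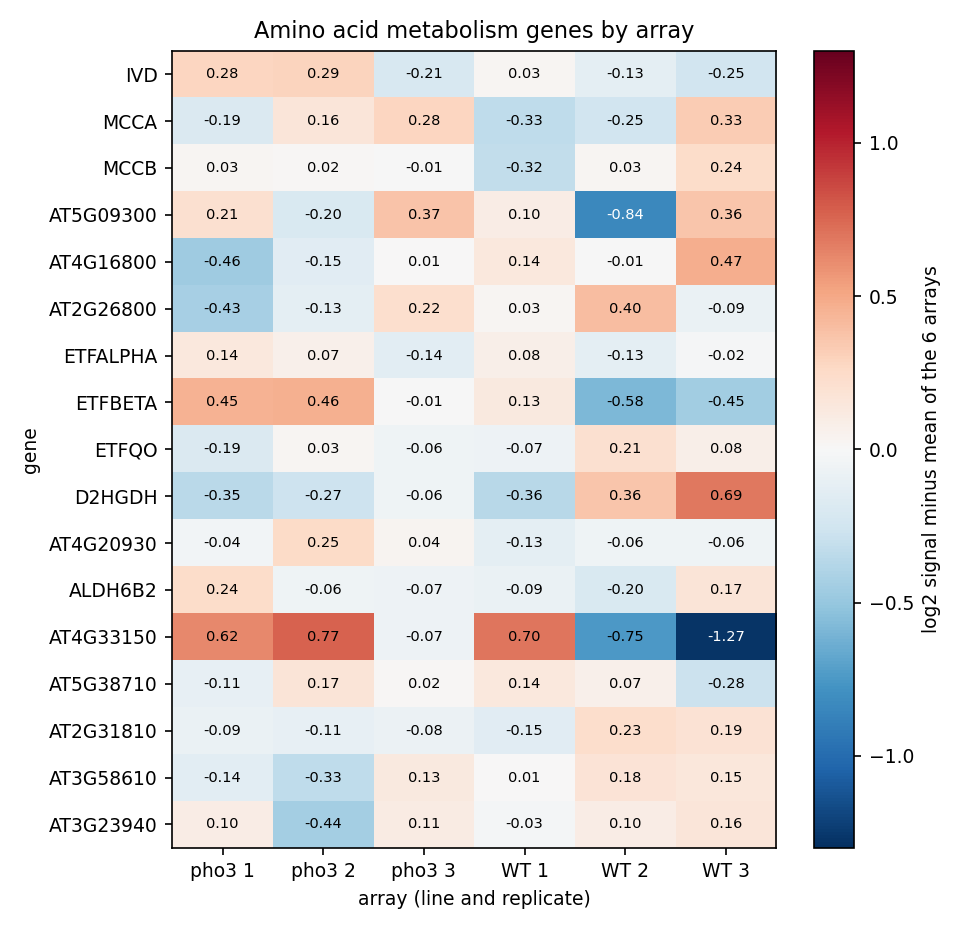
Log2 signal minus the mean of the 6 arrays (colour and printed value) for 17 genes of amino acid breakdown and synthesis, one row per gene, with the 3 pho3 arrays left of the 3 wild-type arrays. IVD reads 0.28 and 0.29 on pho3 replicates 1 and 2 and 0.03 or less on the other 4 arrays, MCCA and MCCB are both lowest on wild-type replicate 1, and AT4G33150 spans the widest range, from -1.27 to 0.77.

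Electron transfer was listed with 4 genes, and all 4 were tested. None passed limma's adjusted test over the 6 arrays. ETFBETA, the beta subunit of the electron transfer flavoprotein, read 197, 199 and 143 in pho3, against 158, 96.7 and 106 in wild type. The array labelled wild-type replicate 1 read above pho3 replicate 3, and the other wild-type arrays read below every pho3 array. Its log2 difference was 0.60 (SE 0.24, limma adjusted p = 0.375), with an unadjusted limma p of 0.0401. Without wild-type replicate 1 it was 0.81 (limma adjusted p = 0.0627), and without wild-type replicate 2 it was 0.46 (limma adjusted p = 0.708). Without both doubtful arrays it was 0.97 (limma adjusted p = 0.00494), where 34.7% of tested probe sets passed.

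The partner subunit ETFALPHA read 105, 101 and 87.3 in pho3, against 102, 87.6 and 94.6 in wild type. It differed by 0.05 (limma adjusted p = 0.857), with the groups mixed throughout. ETFQO, the oxidoreductase that takes electrons from the flavoprotein to ubiquinone, read 61.8, 72.2 and 67.8 in pho3, against 67.1, 81.5 and 74.4 in wild type, a log2 difference of -0.14 (limma adjusted p = 0.554). D2HGDH, a hydroxyglutarate dehydrogenase that uses the same electron acceptor, read 74.4, 78.7 and 91.2 in pho3, against 74.1, 122 and 153 in wild type. Its log2 difference was -0.46 (limma adjusted p = 0.392). It was -0.75 without wild-type replicate 1 and -0.23 without wild-type replicate 3 (limma adjusted p = 0.0598 and 0.737). Without both doubtful arrays it was -0.83 (limma adjusted p = 0.014), where 34.7% of tested probe sets passed. The median of the 4 genes was -0.05, with 2 higher and 2 lower.

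Genes for the breakdown of other amino acids were listed as well, and 4 of 11 were tested. The mean of each of the 4 was higher in pho3, where 49.8% of all tested probe sets had a mean log2 difference above 0. The median log2 difference of the 4 genes was 0.12, and 0 passed limma's adjusted test. AT4G33150, annotated as the bifunctional lysine-degrading enzyme LKR/SDH, read 207, 231 and 129 in pho3, against 219, 80.3 and 55.8 in wild type. The array labelled wild-type replicate 1 lay among the pho3 values, and wild-type replicates 2 and 3 lay below all of them. Its log2 difference was 0.88 (SE 0.51, limma adjusted p = 0.387). It was 1.45 without wild-type replicate 1 (limma adjusted p = 0.0437) and 1.71 without both doubtful arrays (limma adjusted p = 0.00312). Of all tested probe sets, 5.44% passed without wild-type replicate 1 and 34.7% without both. Without wild-type replicate 3 the difference of AT4G33150 was 0.47 (limma adjusted p = 0.722).

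ALDH6B2, an aldehyde dehydrogenase of valine breakdown, read 150, 122 and 121 in pho3, against 119, 110 and 143 in wild type. It differed by 0.08 (limma adjusted p = 0.795). AT4G20930 read 64.9, 79.2 and 68.6 in pho3, against 61, 63.8 and 64 in wild type, and was the only one of these 4 genes whose groups did not overlap, where 5.31% of tested probe sets were higher without overlap. Its log2 difference was 0.17 (limma adjusted p = 0.481). AT5G38710 differed by 0.05 (limma adjusted p = 0.87).

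Genes for making leucine and its relatives were listed too. Of 15 listed, 3 were tested, and all 3 were lower in pho3 on average. Their median log2 difference was -0.19, with 0 calls in limma's adjusted test. A lower mean was found for 7022 of the 13983 tested probe sets. AT2G31810 read 239, 235 and 240 in pho3, against 229, 298 and 290 in wild type. AT3G58610 read 1066, 938 and 1291 in pho3, against 1187, 1335 and 1312 in wild type. The log2 differences were -0.19 for AT2G31810, -0.23 for AT3G58610 and -0.15 for AT3G23940 (limma adjusted p = 0.499, 0.408 and 0.645). Without both doubtful arrays AT3G58610 fell by 0.40 (limma adjusted p = 0.0338), where 34.7% of tested probe sets passed. Leaving out single arrays in turn gave -0.35 to -0.12 for AT3G58610 (limma adjusted p of 0.189 to 0.777). The value was -0.12 without pho3 replicate 2. After quantile normalization it was -0.12 and with array weights -0.36 (limma adjusted p = 0.577 and 0.0581).

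Few of the other sugar-starvation genes could be set beside the leucine genes, since 1 of 16 listed had a named probe set. ATL8, a RING finger protein gene, read 39.4, 39.2 and 36.1 in pho3, against 30.9, 20.9 and 37.6 in wild type. It differed by 0.40 (limma adjusted p = 0.406), and wild-type replicate 3 lay within the pho3 range. ATL8 was dim too, between percentiles 32.8 and 48.5 of each array. The SnRK1 kinase complex and its partner bZIP factors are known to switch on starvation genes, and 3 of 10 genes listed for them were tested. BZIP53 read 337, 325 and 287 in pho3, against 300, 236 and 280 in wild type, a log2 difference of 0.22 (limma adjusted p = 0.439).

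AKINBETA1, a beta subunit of SnRK1, read 55.8, 70.2 and 96.1 in pho3, against 72.6, 149 and 194 in wild type. Its log2 difference was -0.83 (limma adjusted p = 0.375). It was -1.24 without wild-type replicate 1 (limma adjusted p = 0.0474) and -1.44 without both doubtful arrays (limma adjusted p = 0.00444). Of all tested probe sets, 5.44% passed without wild-type replicate 1 and 34.7% without both. Without wild-type replicate 3 the difference of AKINBETA1 was -0.53 (limma adjusted p = 0.696). AT4G16360, annotated as KINbeta2, differed by 0.18 (limma adjusted p = 0.517). None of the 11 genes listed for biotin enzymes, which make the cofactor of MCCA or share it, had a named probe set.

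**Figure D4:**
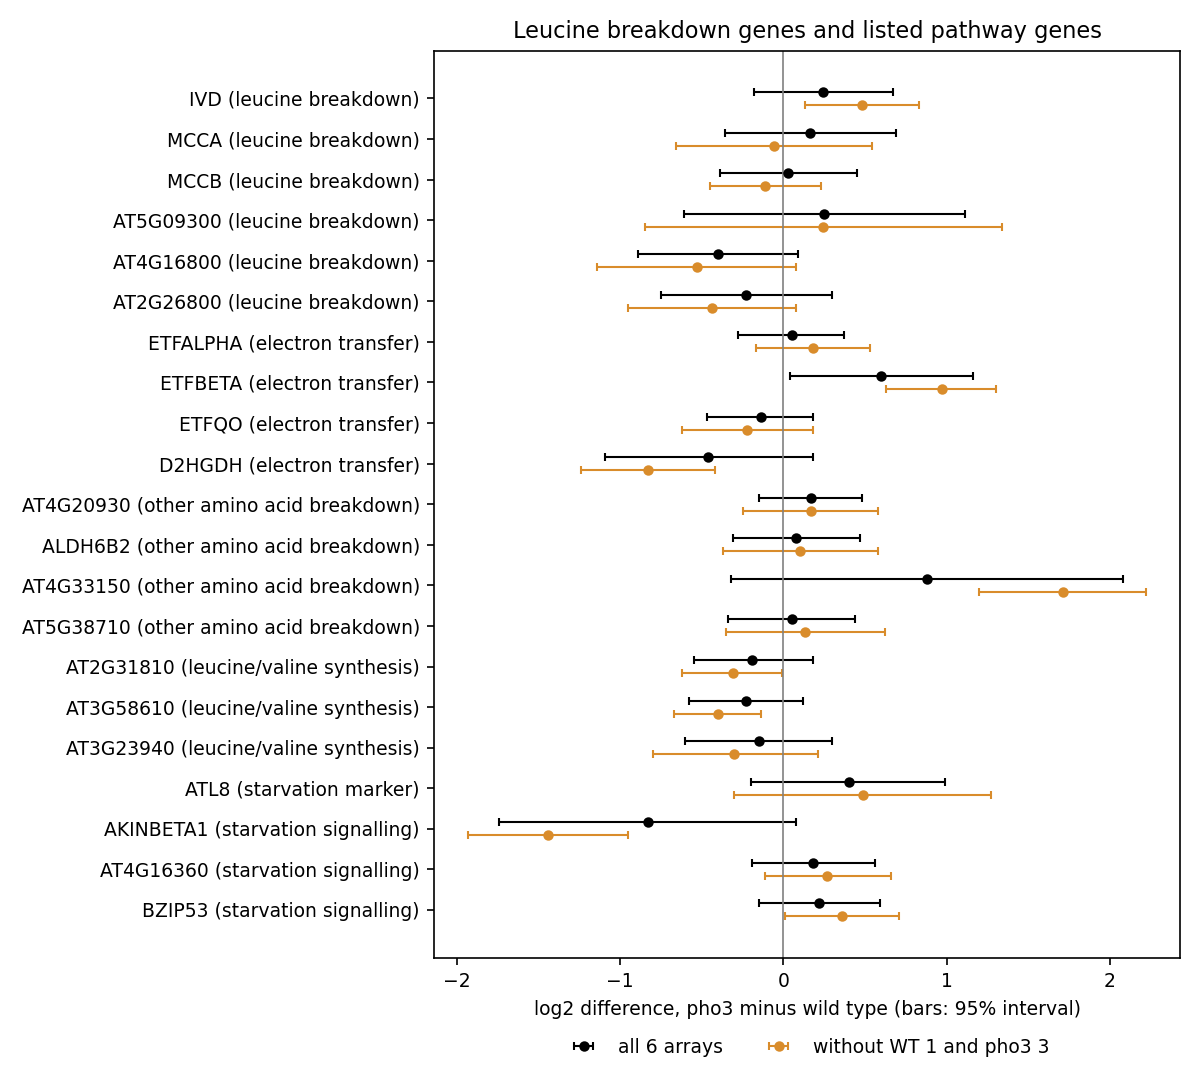
Log2 difference, pho3 minus wild type (horizontal axis), with 95% intervals for IVD, MCCA, MCCB and the listed pathway genes, from all 6 arrays (black) and without wild-type replicate 1 and pho3 replicate 3 (orange). Among the 3 leucine genes the orange interval lies above 0 for IVD, from 0.13 to 0.83, and spans 0 for MCCA and MCCB.

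The genes most like each member were found by Pearson correlation of log2 signals over the 6 arrays, among 7609 single-gene probe sets that were tested. The arrays share 2 groups and whole-array deviations, so r is only a description. For IVD they were AT3G26560, AT2G25760 and AT3G53390 (r of 0.996, 0.995 and 0.992). AT3G26560 read 125, 125 and 94.2 in pho3, against 108, 98.6 and 95.1 in wild type. For MCCA they were AT3G07510, AT1G31440 and AT3G24670 (r of 0.996, 0.987 and 0.963). AT3G07510 read 49.3, 57.6 and 61.2 in pho3, against 47.3, 49.8 and 62.4 in wild type. For MCCB they were AT2G36240, AT1G36730 and AT4G11380 (r of 0.962, 0.949 and 0.942). AT2G36240 read 113, 115 and 116 in pho3, against 102, 120 and 126 in wild type. None of these 9 genes was shared between members or passed limma's adjusted test over the 6 arrays. AT3G53390 differed by 0.28 over the 6 arrays (limma adjusted p = 0.469). It differed by 0.59 without both doubtful arrays (limma adjusted p = 0.0336), where 34.7% of tested probe sets passed. It was picked for following IVD on these same arrays, so this call adds nothing separate to that of IVD.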

How the data were processed

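Affymetrix ATH1 arrays measured rosette leaf RNA of 3 pho3 and 3 wild-type samples. The submitters' processing notes name MAS5, with no version; the deposited values are linear signal intensities with a mean, after trimming at both ends, of 100 on every array. The authors' further steps are not given in the sources used here. Groups and replicate numbers came from the sample titles.

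Control probe sets (64) were left out. The 13983 probe sets that reached the 40th percentile of signal (26.2 to 28.4) on 3 or more arrays were tested as log2 signals, without pseudocount or rescaling. The test used limma 3.58.1 in R 4.3.3 (lmFit, eBayes with trend). The same fit was run on simulated data with independent noise for each probe set and array. Those data lack the whole-array deviations seen here, so they cannot show how the fit performs on these arrays. Folds are ratios of geometric means. Means with SD are arithmetic. The number of arrays limits the precision. Figures used matplotlib 3.10.9.

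Names came from the platform annotation, updated through gene numbers to RefSeq (TAIR10.1); 13513 probe sets had 1 gene, of which 13436 matched, 503 had several and 8730 none. No coordinates or sequences are given, since the sources used here hold no sequence.

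The members and lists were chosen with earlier results of these data known. The rule named the 3 genes and up to 4 tested members per list with the smallest p. It also named the 3 sugar-induced genes APL3, APL4 and DFR and the 3 genes most correlated with each member. Alternatives were median centring, quantile normalization, no filter, a pseudocount of 16, a 60th percentile filter, other variance priors, array weights, a replicate block and leaving out arrays.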

Additional observations from a re-analysis of the deposited data

How the results depend on the processing

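Over the 10 alternatives that did not leave out a single array, the log2 difference ranged from 0.19 to 0.48 for IVD, from -0.06 to 0.16 for MCCA and from -0.11 to 0.03 for MCCB. IVD passed limma's test in 1 of them, which dropped wild-type replicate 1 together with pho3 replicate 3 (0.48, limma adjusted p = 0.046, range over the alternatives 0.046 to 0.554). There MCCA was at -0.06 and MCCB at -0.11, AT3G07510 at -0.06 and AT1G31440 at -0.03. With array weights MCCB was at -0.04. ETFBETA (0.85), D2HGDH (-0.67), AT4G33150 (1.39), AKINBETA1 (-1.18) and APL3 (2.40) then passed limma's adjusted test. Of the 13983 tested probe sets, 2237 were called higher and 2026 lower with those weights, so a call there is common. After quantile normalization ETFALPHA was at -0.00 and AT5G38710 at -0.01. The leaf markers LHCB4.1, RCA, PRK, HPR and PSAN were then at -0.11, -0.07, -0.38, -0.42 and -0.18. In the main fit these markers were at -0.25, -0.23, -0.53, -0.57 and -0.33. Leaving out 1 array in turn gave 0.16 to 0.41 for IVD, 0.04 to 0.37 for MCCA, -0.12 to 0.16 for MCCB and 0.02 to 0.28 for the MCCA to MCCB ratio. It gave -0.10 to 0.50 for AT5G09300, -0.01 to 0.13 for ETFALPHA, -0.02 to 0.18 for ALDH6B2, -0.08 to 0.13 for AT5G38710, -0.25 to 0.03 for AT3G23940 (-0.30 without both doubtful arrays), 0.00 to 0.20 for AT3G07510, 0.02 to 0.28 for AT1G31440, -0.10 to 0.05 for AT2G36240, -0.12 to 0.05 for AT1G36730 and -0.16 to 0.04 for AT4G11380. Probe sets called numbered 0 to 644 higher and 0 to 117 lower over the arrays left out, above 0 only without wild-type replicate 1. They numbered 2237 higher and 2026 lower with array weights, and 2547 and 2305 without both doubtful arrays. The causes of these changes were not tested. With the replicate number as a block, the log2 difference was 0.24 for IVD, 0.16 for MCCA and 0.03 for MCCB (limma adjusted p = 0.386, 0.563 and 0.932), and calls stayed at 0 in each direction. The SE was 0.15, 0.16 and 0.18 for these genes with the block, against 0.18, 0.22 and 0.18 without it. Deviations of same-numbered arrays correlated at 0.39, -0.27 and 0.43. These correlations cannot decide whether the numbers pair the samples, since each deviation is taken from a mean of only 3 arrays. The main fit was left without the block. List medians without the doubtful arrays were added after seeing the data.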
